A study of Mus musculus with 18 samples.

Results

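The comparison described here is the effect of thyroid surgery within the side population, the cells that pump out the dye Hoechst 33342 and so appear dim in flow cytometry. It rests on 10 arrays: 6 of side population cells from thyroids without surgery (CSP 1 to CSP 6) and 4 of side population cells from thyroids after partial thyroidectomy (TSP 3 to TSP 6), out of 18 arrays in the series. The arrays were selected on their whole expression profile in an earlier reading of the same data: 2 further arrays labelled as side population after surgery, TSP 1 and TSP 2, looked like main population arrays and were left out. The other 6 arrays hold main population cells, 3 without surgery (CMP) and 3 after it (TMP), and enter only where the difference in the side population was set against theirs.

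All mice were C57BL/6, labelled male/female, and the labels give neither an age nor the interval after surgery. The glands were dissociated with collagenase plus dispase 1. Cells were grown for 2 days, stained with the dye with or without verapamil (which blocks the pumps), and sorted. Every value compared therefore comes from cells that had been in culture. RNA was amplified, labelled with Cy5 and hybridised to a mouse oligonucleotide array against 1 common Cy3 reference, a mix of Swiss Webster RNA from embryo and from brain, thymus, spleen, heart, lung, liver, kidney, ovary and testicle. There was no dye swap. Each value below is log2 of sample over reference, so a difference of 1 between groups is a 2-fold difference, and a value below 0 means less signal than in the tissue mix. The submitters call the samples biological replicates without saying how many animals stand behind each, and p-values measure the spread between these samples.

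The side population is known from bone marrow and many solid tissues as a fraction in which cells with progenitor properties can be enriched, because ATP-binding cassette pumps such as Abcg2 and the P-glycoproteins clear the dye. Endothelial and other stromal cells can carry the same pumps, so a side population need not hold a single cell type. The thyroid itself contains follicular cells that make thyroid hormone, calcitonin-producing C cells, and a stroma of fibroblasts, pericytes and capillaries that lays down collagen and other matrix. After partial removal of the gland the tissue that stays behind is both wounded and driven to grow.

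The 10 arrays lay on 4 slides. Only slide 3 carried both groups, CSP 3 and CSP 4 beside TSP 3 and TSP 4. CSP 1 and CSP 2 were on slide 1, CSP 5 and CSP 6 on slide 4, and TSP 5 and TSP 6 on slide 5, so outside slide 3 the slide and the group cannot be told apart. The share of spots that stood well above the Cy5 background was 38.8% to 70.8%. Slides 1 and 5 had the low shares, and their median Cy5 background was 79 to 82.5 and 92 to 92.5 against 42 to 43 on slides 3 and 4. Across genes, the median r with the arrays of main cells was 0.946 for TSP 1 and 0.956 for TSP 2, against 0.666 to 0.778 for the CSP arrays and 0.673 to 0.713 for TSP 3 to TSP 6.

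CSP 3 and CSP 4 stood apart in a gene of the X chromosome. Xist, the non-coding RNA made by the inactive X chromosome of females, read -4.43 and -4.05 on them and 0.07 to 2.57 on the other 8 arrays. The Y-linked genes Ddx3y and Eif2s3y had their top values on CSP 4, at 1.68 and 1.30, against -0.13 to 1.18 and -0.56 to 0.76 elsewhere. Any difference within slide 3 therefore also sets these 2 arrays apart from arrays with more Xist, and the part of sex in the differences was not tested.

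No gene passed the test of TSP 3 to TSP 6 against CSP 1 to CSP 6. Of 18893 genes tested with limma, 0 had a Benjamini-Hochberg adjusted p under 0.05 and the smallest adjusted p was 0.9998. At an unadjusted p under 0.05 there were 258 genes higher after surgery (1.37% of those tested) and 306 lower (1.62%). Within slide 3 limma again called 0, with 682 higher (3.61%) and 625 lower (3.31%) unadjusted. The set of TSP 5 and TSP 6 on slide 5 against CSP 5 and CSP 6 on slide 4 gave 0 as well, with 1101 higher (5.83%) and 781 lower (4.13%) unadjusted. Blocking on the replicate number, which pairs TSP 3 to TSP 6 with CSP 3 to CSP 6, gave 0 with 599 higher (3.17%) and 1066 lower (5.64%) unadjusted. The labels number the samples but state no pairing of CSP with TSP. This block was made because same-numbered arrays deviated together in these same data. A gene named below did not pass unless it is said to have passed with the slide as a block.

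The difference on slide 3 and that between the other slides had almost no correlation. Across the 18893 genes, which are not independent replicates, r between the slide 3 difference and the difference of TSP 5 and TSP 6 from CSP 5 and CSP 6 was 0.00054. Over the 10726 genes well above background on all 10 arrays it was 0.096. Pairs that share slides gave a higher r, 0.15 between pair 3 and pair 4, which share slide 3, and 0.33 between pair 5 and pair 6.

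**Figure D1:**
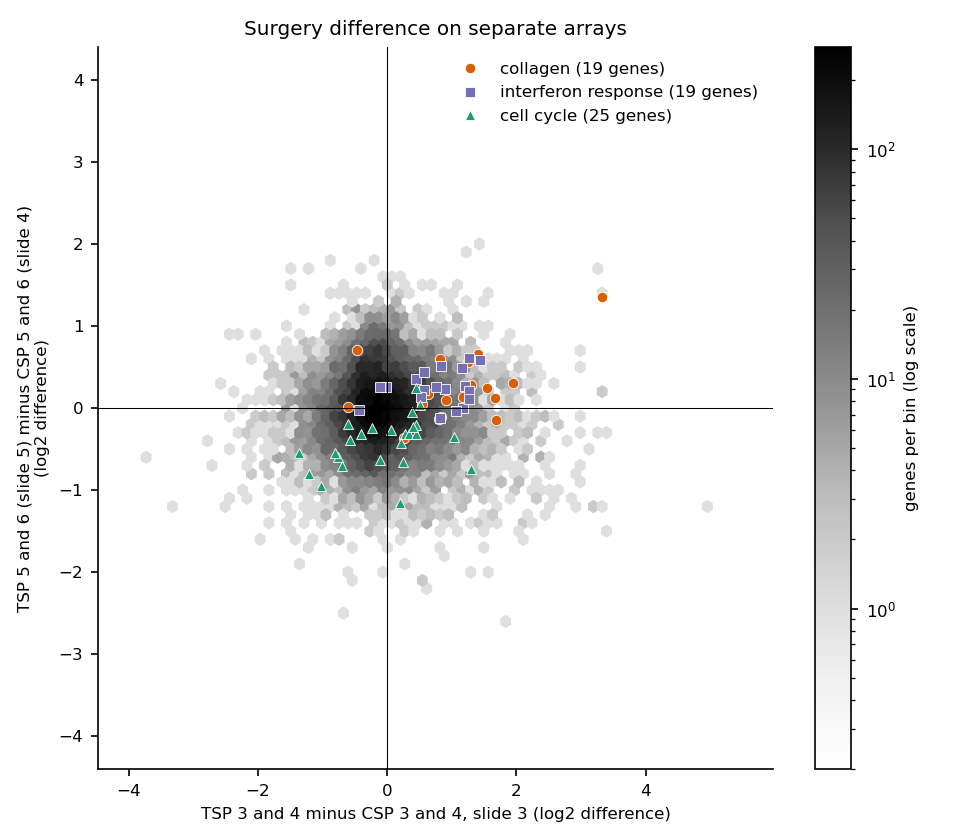
Hexagons shade the number of genes (log scale) by their log2 difference within slide 3 (TSP 3 and 4 minus CSP 3 and 4) on the x axis and that of TSP 5 and 6 minus CSP 5 and 6 on the y axis, with collagen, interferon response and cell cycle genes as coloured points. The cloud has no slope (r = 0.00054 over 18893 genes).

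Genes whose 4 TSP values all lay above or all below the 6 CSP values were few: 57 higher (0.305% of 18702 genes with a value on every array) and 128 lower (0.684%). The genes with the smallest unadjusted p among these, with the same sign on slide 3, were taken in each direction. The first 3 of the higher genes, Postn, Fstl1 and Adamts5, code for secreted proteins.

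Postn codes for periostin, a matricellular protein secreted by fibroblasts in healing tissue, and its probe maps to chr3:54519770-54519829, plus strand of build mm7, to which all probe positions below belong. It read from -1.64 to 0.15 on the CSP arrays (median -0.56) and 0.59, 1.32, 0.89 and 1.15 on TSP 3 to TSP 6. The mean was 0.99 ± 0.32 (SD, n = 4) against -0.72 ± 0.66 (SD, n = 6), a difference of 1.70 ± 0.33 (SE), or 3.26-fold, with an unadjusted p of 0.000195 in the fit across all genes. Every TSP array stood above every CSP array, by the least for TSP 3 against CSP 4, and TSP 5 and TSP 6, on another slide than TSP 3 and TSP 4, lay between those.

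Fstl1, a secreted glycoprotein of the follistatin family (chr16:37543886-37543945, plus strand), read from 0.93 to 1.83 on the CSP arrays (median 1.66) and 2.35, 2.71, 2.10 and 2.51 on TSP 3 to TSP 6. The groups did not overlap, and CSP 3 was lowest. Their difference was 0.87 ± 0.22 (SE), with 1.24 on slide 3 and 0.56 between TSP 5 and 6 and CSP 5 and 6.

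Adamts5, a protease that cleaves aggrecan and other proteoglycans (chr16:85858359-85858419, minus strand), read from -1.24 to 0.16 on the CSP arrays (median -0.03) and 1.24, 1.36, 0.45 and 0.62 on TSP 3 to TSP 6. TSP 3 and TSP 4 stood well above the other arrays, while TSP 5 and TSP 6 were closer to the CSP range without entering it. The difference was 1.20 ± 0.31 (SE), 2.3-fold, and both of its probes were higher after surgery.

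Hey1, a transcriptional repressor induced by Notch signalling (chr3:8669867-8669926, minus strand), read from 1.14 to 2.12 on the CSP arrays (median 1.98) and 2.40, 2.94, 3.16 and 2.32 on TSP 3 to TSP 6. The TSP values again lay clear of the CSP values, with CSP 1 and CSP 6 lowest. Its difference was 0.94 ± 0.27 (SE).

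The other 8 genes in this direction differed by 0.65 to 1.16: Gorasp1, which stacks Golgi membranes, Cdkl1, a kinase, Trmt1l, a relative of tRNA methyltransferases, Chst8, a sulfotransferase that acts on glycoprotein hormones, Rhbdl3, a rhomboid-family protein, Slc30a9, of a zinc transporter family, Phc3, a subunit of Polycomb repressive complexes, and the transcript 4632404H12Rik. The values of Trmt1l were from -1.45 to -0.61 on the CSP arrays (median -0.78) and 0.03, 0.02, -0.20 and -0.34 on TSP 3 to TSP 6. Its groups were separate in both sets, by 1.10 on slide 3 and 0.73 between the other slides. Rhbdl3 and Slc30a9 have 3 probes each that differed in sign, and Phc3 was well above background on 2 arrays of each group, so these rest on less.

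Among the genes that were lower, Fosl1 had the smallest p. It codes for Fra-1, an AP-1 transcription factor induced by growth signals, and its probe lies at chr19:5350302-5350361, plus strand. Fosl1 read from 4.91 to 5.53 on the CSP arrays (median 5.32) and 4.44, 4.70, 4.16 and 4.39 on TSP 3 to TSP 6. No TSP value reached the lowest CSP value, and the reading was far above the reference on all 10 arrays. The difference was -0.85 ± 0.21 (SE), with -0.75 on slide 3 and -1.25 between the other slides, and an unadjusted p of 0.00131. It was the only AP-1 or immediate early gene of 19 tested with an unadjusted p under 0.05.

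Rps21, a protein of the small ribosomal subunit, read from 0.66 to 1.59 on the CSP arrays (median 1.15) and -0.04, 0.17, 0.44 and 0.59 on TSP 3 to TSP 6. The separation was wide on slide 3, at -1.08, and narrow between the other slides, at -0.20. Zfas1, a non-coding RNA that hosts small nucleolar RNAs, read from 1.38 to 1.89 on the CSP arrays (median 1.77) and 0.65, 1.24, 1.19 and 1.23 on TSP 3 to TSP 6. Here TSP 3 was the low array, and the other 3 TSP arrays lay just under the CSP range.

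Lin52, a subunit of the DREAM complex that represses cell cycle genes, read from -0.78 to 0.24 on the CSP arrays (median 0.04) and -0.90, -0.81, -0.84 and -1.0 on TSP 3 to TSP 6. The TSP values were close together, and CSP 5 and CSP 6 were the CSP arrays nearest to them. Letm2, of a family of mitochondrial membrane proteins, had 5 CSP values from 0.12 to 0.55, with CSP 4 at 1.68, against -0.19, -0.33, -0.63 and -0.19 on TSP 3 to TSP 6. The log2 difference of Letm2 was -0.91, and -0.69 without CSP 4. The remaining 7 differed by -0.94 to -0.57: Nr5a1, the nuclear receptor steroidogenic factor 1, Was, an actin regulator of blood cells, Gsdmc3, a gasdermin, Krtap16-3, a hair keratin-associated protein, the membrane protein Csmd3, and the transcripts 4921507G05Rik and 1810024B03Rik. In all 7 the TSP arrays were dim, with 1 of 4 well above background in Csmd3 and 2 of 4 in the others. A second probe differed by -0.01 for Krtap16-3 and by -0.19 for Was. Letm2 differed by -0.57 with its second probe.

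**Figure D2:**
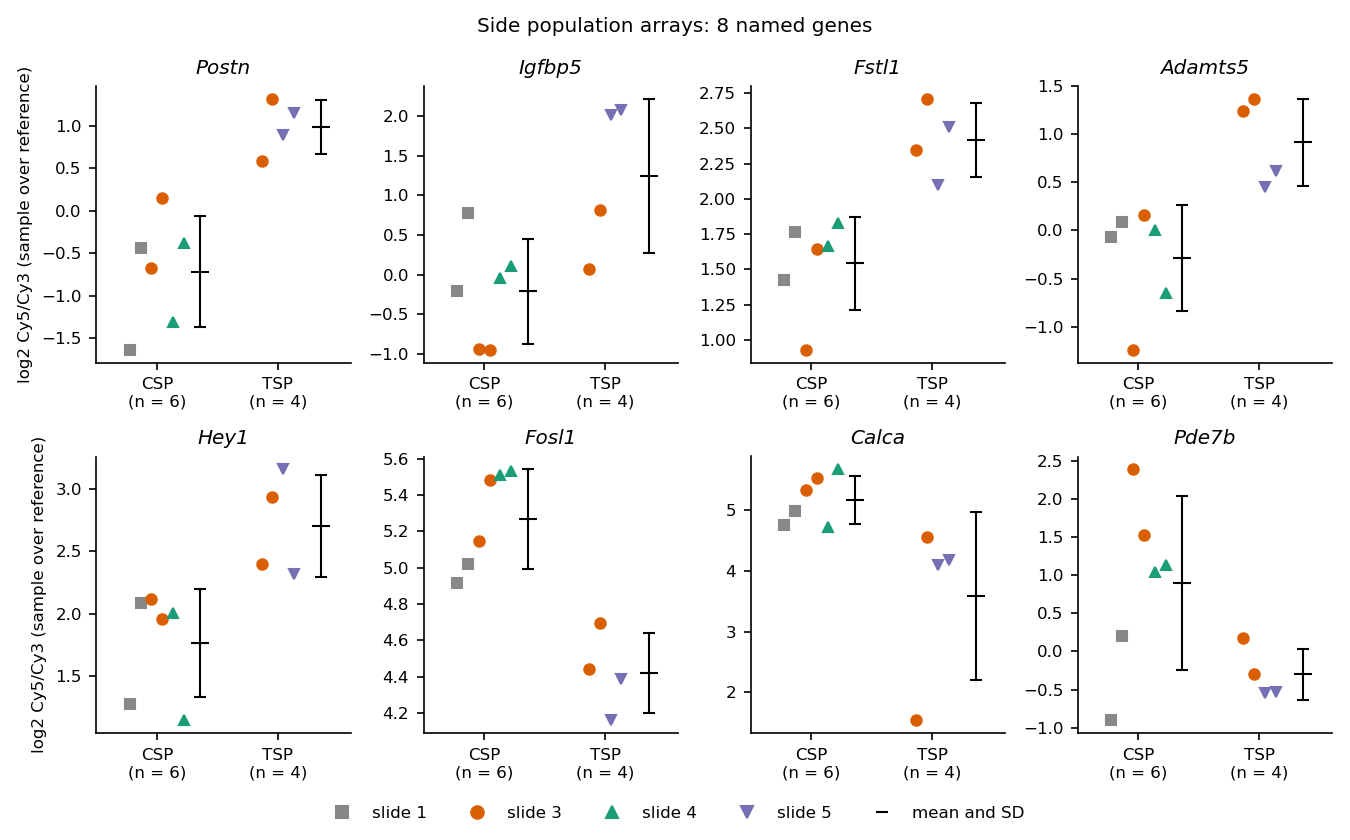
Each panel is a gene and each point an array, with log2 sample over reference on the y axis, CSP and TSP side by side, a bar at the mean and the SD as error bar (n = 6 and 4). Postn, Fstl1, Adamts5 and Hey1 lie higher on all 4 TSP arrays than on any CSP array, Fosl1 and Calca lower, Calca with TSP 3 far under the rest, while Igfbp5 and Pde7b overlap between the groups.

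Another reading asked that each TSP array differ by over 1 from the CSP array of its own number, in the same direction in all 4 pairs. CSP 1 and CSP 2 do not enter this rule, and the groups may overlap under it. Igfbp5, Postn and Fibin were higher in this way (0.016% of 18767 genes), and Pde7b, Ccdc186 and 2 transcripts, 4930463O16Rik and 4930474A20Rik, were lower (0.0213%). Ccdc186, Fibin and 4930474A20Rik were chosen after their values were seen. In general, 1287 genes were higher in all 4 pairs by any amount (6.86%) and 2399 lower (12.8%).

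Igfbp5 binds insulin-like growth factors in the extracellular space and holds them in matrix, and its probe lies at chr1:73100116-73100175, minus strand. Igfbp5 read from -0.95 to 0.78 on the CSP arrays (median -0.12) and 0.07, 0.81, 2.02 and 2.08 on TSP 3 to TSP 6. The groups overlapped, because TSP 3 lay within the CSP range, yet the pair differences 3 to 6 were 1.01, 1.76, 2.06 and 1.97. The difference over the 10 arrays was 1.45 ± 0.44 (SE), 2.74-fold, with an unadjusted p of 0.00607. A second Igfbp5 probe, less bright, differed by 0.80.

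Fibin, a secreted protein described in limb development (chr2:110211752-110211811, minus strand), read from -3.90 to -0.42 on the CSP arrays (median -1.92) and -1.66, 0.62, -2.22 and 0.05 on TSP 3 to TSP 6. Arrays with odd numbers were low and arrays with even numbers high in both groups, so the groups overlapped while the pairs differed by 1.49, 1.73, 1.68 and 1.14. With the number as a block the difference was 1.51 ± 0.18 (SE), against 1.26 ± 0.73 (SE) without it.

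Pde7b, a phosphodiesterase that degrades cyclic AMP (chr10:20124315-20124374, minus strand), read from -0.91 to 2.39 on the CSP arrays (median 1.08) and 0.17, -0.30, -0.55 and -0.54 on TSP 3 to TSP 6. CSP 1, on slide 1, was lower than any TSP array, and CSP 2 to CSP 6 were all above 0.17, the highest TSP value. The pairs differed by -2.22, -1.82, -1.59 and -1.66, and 2 of the 4 TSP arrays were well above background. The transcript 4930463O16Rik read from 0.33 to 2.23 on the CSP arrays (median 1.48) and 0.18, 0.14, 0.83 and 0.36 on TSP 3 to TSP 6, with pair differences of -1.10, -1.54, -1.39 and -1.47. Again the CSP arrays of slide 1 were the ones nearest to the TSP arrays.

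Beyond these, 2 genes met the rule of a step of at least 1 in both sets without being over 1 in every pair or apart as groups. Col3a1, the alpha chain of type III collagen (chr1:45585395-45585454, plus strand), was higher, at -2.71 and -1.11 on CSP 3 and CSP 4 against 0.37 and 2.45 on TSP 3 and TSP 4, and at -0.58 and 0.71 on CSP 5 and CSP 6 against 0.20 and 2.64 on TSP 5 and TSP 6. CSP 1 and CSP 2, at 0.46 and 2.14, were within the TSP range. The mean of Col3a1 was 1.42 ± 1.31 (SD, n = 4) against -0.18 ± 1.67 (SD, n = 6). With its second probe, which is less bright, the means were 0.94 and 0.29, a smaller difference of 0.65. Plekhs1, a pleckstrin homology protein, differed by -2.49 on slide 3 and by -1.23 between the others, but CSP 2 read -2.11, and the groups overlapped. The 2 probes of Plekhs1 differed by -1.04 and -0.30.

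**Figure D3:**
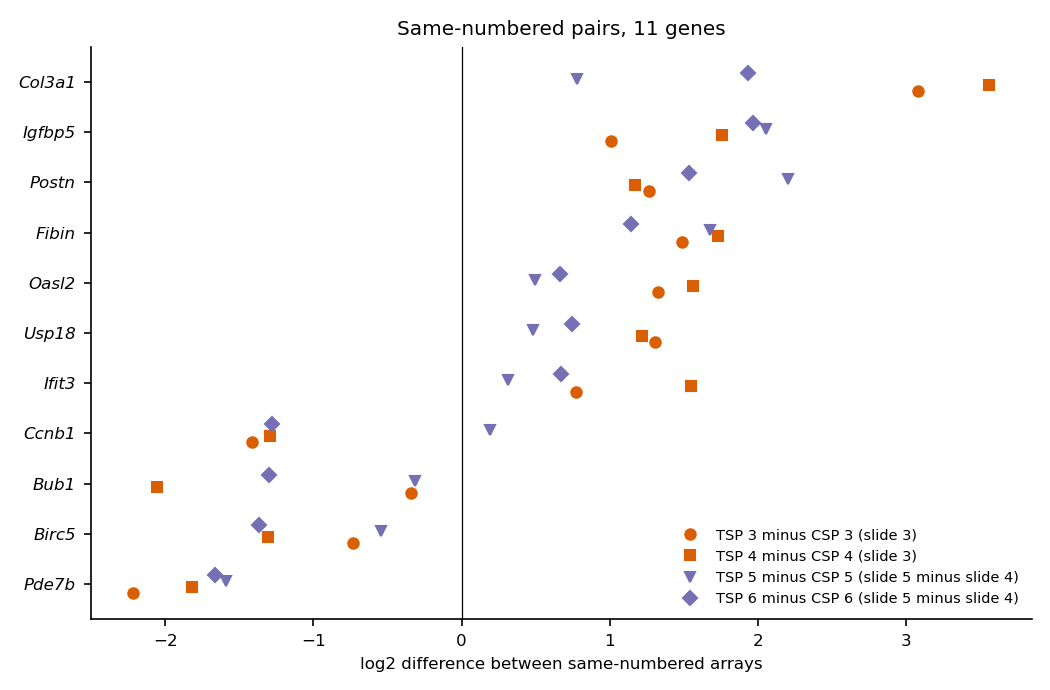
Each row is 1 of 11 genes and each point a same-numbered pair, with the log2 difference TSP minus CSP on the x axis, coloured by slide and shaped by the replicate number 3 to 6. All 4 points lie above 0 for Igfbp5, Postn, Fibin and Col3a1 and all 4 below 0 for Pde7b, and both pairs of slide 3 lie to the right of the other pairs for Col3a1.

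With the slide taken into account as a fixed block, some genes passed. Over the 10 side population arrays, where only slide 3 then informs the difference, limma called 3 genes at an adjusted p under 0.05 (0.0159%). Unadjusted, 1065 were higher (5.64%) and 1313 lower (6.95%). Itpripl2, an inositol trisphosphate receptor-interacting protein homologue, was higher by 3.02 ± 0.24 (SE), with an adjusted p of 0.0356. It read 0.61 and 0.29 on CSP 3 and CSP 4, 3.45 and 3.49 on TSP 3 and TSP 4, and 3.10 to 3.89 on the other 4 CSP arrays. So the CSP arrays off slide 3 overlapped the TSP arrays, and only CSP 3 and CSP 4 were low. Stx16, a syntaxin of the trans-Golgi network, had the same shape, at -1.91 and -1.87 on CSP 3 and CSP 4 against -0.26 to 0.81 on the other CSP arrays and 0.23 to 0.32 on the TSP arrays. The third was the unnamed transcript TC1442897.

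Adding the 6 main population arrays lets slides 4 and 5 inform the difference too, because each holds 1 CMP and 1 TMP array. With slide as a block over those 16 arrays, 63 genes passed (0.333%), 29 higher (0.153%) and 34 lower (0.18%), and 39 of them have a RefSeq symbol. Unadjusted, 1017 were higher (5.38%) and 2367 lower (12.5%). The fit takes the effect of a slide as equal in both populations. None of the 3 genes above was among the 63. Of the 63, 51 had the same sign on slide 3 and between slides 5 and 4, against 51.7% of all genes. Since slides 3, 4 and 5 all inform the fit that chose these genes, that match is partly built in and is no replication. The genes named from this set were chosen after their values were seen.

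Genes that rose in this fit included Gbp3, an interferon-induced guanylate-binding protein, at 1.38 ± 0.22 (SE, adjusted p 0.0347), and Ifih1, the RNA sensor MDA5, at 0.93 ± 0.17. Also higher were Yy1, a zinc finger transcription factor (1.27), Eif2ak3, the stress kinase PERK (1.17), Mapk9, the kinase JNK2 (1.07), Gsk3b, a kinase of Wnt and insulin signalling (1.04), and Sod2, mitochondrial superoxide dismutase (0.87). Sod2 read from -1.39 to -0.48 on the CSP arrays (median -0.94) and 0.29, 0.52, -0.52 and -0.51 on TSP 3 to TSP 6. TSP 3 and TSP 4 were the highest of the 10 arrays, and TSP 5 and TSP 6 lay level with CSP 3 and CSP 4.

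Genes that fell in it included Pde7b, at -1.81 ± 0.32 (SE, adjusted p 0.046), 4930463O16Rik, at -1.37 (adjusted p 0.0356), 4930474A20Rik, at -1.62 (adjusted p 0.0347), Zfyve19, a protein of the abscission checkpoint of cell division, at -1.34, and Rpl14, a ribosomal protein, at -1.18. Zfyve19 read from 0.40 to 1.18 on the CSP arrays (median 0.74) and -0.55, -0.48, 0.38 and 0.38 on TSP 3 to TSP 6. TSP 3 and TSP 4 were below 0, whereas TSP 5 and TSP 6 sat just under the lowest CSP value. Its separation was -1.51 on slide 3 and -0.22 between slides 5 and 4.

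Slide and odd or even number together as blocks over the 10 arrays called 89 genes (0.471%), 65 higher (0.344%) and 24 lower (0.127%), and 14 of them were also called over the 16 arrays. This alternative was added after the data were seen, with 1394 genes higher (7.38%) and 1667 lower (8.82%) unadjusted. Of the 89, 41 had the same sign on slide 3 and between slides 5 and 4, against 51.7% of all genes. The fit called Col3a1, higher by 3.32 (adjusted p 0.0271), with the matrix genes Col2a1, Col5a2 and Col6a1, and Fibin. Oasl2, an interferon response gene, was higher by 1.44 in it (adjusted p 0.0479). Xist was called in it too, at 5.00, along with Tgfbi, Gas1 and Itpripl2, which had their lowest values on CSP 3 and CSP 4. In this fit too, only slide 3 informs the difference. Col3a1 also had its lowest values on CSP 3 and CSP 4, at -2.71 and -1.11. Tgfbi, a secreted matrix protein, read -2.42 and -1.76 there, against 0.69 to 1.75 on the other CSP arrays and 0.16 to 0.74 on the TSP arrays. The test of differences between slides 1, 3, 4 and 5 was passed by 3427 genes, 18.1% of those tested, and that of odd against even number by 2 (0.0106%). Each slide held its own samples, so the first test cannot tell slide and sample apart.

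The step within slide 3 was often a step away from the other CSP arrays as well. Both TSP arrays lay at least 1 above both CSP arrays of slide 3 in 190 genes (1.01%) and at least 1 below in 82 (0.434%). In 128 of the 190 (67.4%) the mean of the other 4 CSP arrays was nearer to TSP 3 and TSP 4 than to CSP 3 and CSP 4, and in 61 of the 82 (74.4%), against 50.7% of all genes. The sign between slides 5 and 4 matched in 61 of 189 (32.3%) of the first set, and in 52 of 82 (63.4%) of the second, against 51.7% of all genes. Since slide 3 chose these genes, the first figures are descriptions of where the other CSP arrays fell.

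The gene lists with the highest median differences were the collagen, smooth muscle and pericyte, matrix protease, interferon response, fibroblast and matricellular lists, in that order. Centring each array on its median, in place of loess alone, moved the median over all genes from -0.03 to 0.08. The 6 lists stayed above the median of all genes under that and the other scalings. Of 19 collagen genes tested, 15 were higher and 0 had an unadjusted p under 0.05 in either direction. Their median difference was 0.43, against -0.03 over all genes, and 1.18 on slide 3, against -0.10, and 0.13 between slides 5 and 4, against -0.02. With the replicate number as a block, where 8.81% of all genes had an unadjusted p under 0.05, 9 of the 19 did and all 9 were higher: Col1a2, Col3a1, Col4a1, Col5a1, Col5a2, Col5a3, Col6a1, Col6a3 and Col14a1, by 0.66 to 2.34. In this bulk RNA, more cells of a type and more RNA per cell cannot be told apart.

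The list means by array show where the step sits. The mean of the collagen genes was -0.71 and 0.17 on CSP 3 and CSP 4, 0.25 to 1.30 on the other CSP arrays, and 0.46, 1.14, 0.27 and 1.26 on TSP 3 to TSP 6. CSP 2 was the highest array of all, CSP 3 the lowest, and the groups overlapped. The median difference of the list collagen was 0.15 without CSP 3. The fibroblast markers, which share 5 collagens with that list, followed it: 15 of 20 were higher, with a median of 0.25, 1.00 on slide 3 and 0.11 between slides 5 and 4, and the median difference of the list fibroblast was -0.03 without CSP 3. Pdgfra, the receptor that marks fibroblasts, read from -1.16 to 1.00 on the CSP arrays (median 0.35) and -0.01, 0.69, -0.63 and 0.23 on TSP 3 to TSP 6, with the groups intermixed and CSP 3 lowest.

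Among 22 matrix proteases and inhibitors 16 were higher, with a median of 0.30, 0.95 on slide 3 and -0.05 between the others, and Adamts5, Timp2 and Plaur had an unadjusted p under 0.05. Timp2, an inhibitor of matrix metalloproteases, read from -2.25 to -0.94 on the CSP arrays (median -1.55) and -0.63, -0.26, -1.07 and -0.99 on TSP 3 to TSP 6. TSP 3 and TSP 4 lay above every CSP array, and TSP 5 and TSP 6 were inside the CSP range. Plaur, the urokinase receptor, was lower, at 2.53 to 3.37 against 3.26 to 3.56, with only TSP 3 in the CSP range.

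Of 22 matricellular and other secreted matrix genes 14 were higher, with Postn and Loxl2, a lysyl oxidase that crosslinks collagen, higher and Fbln1 and Eln lower at an unadjusted p under 0.05. Loxl2 read from 1.56 to 2.52 on the CSP arrays (median 1.99) and 2.45, 2.75, 2.32 and 2.94 on TSP 3 to TSP 6, so that CSP 2 alone reached the TSP values. Fbln1, fibulin 1 of elastic fibres, read from -2.09 to -1.12 on the CSP arrays (median -1.50) and -1.95, -2.27, -2.34 and -2.42 on TSP 3 to TSP 6, a difference of -0.69 ± 0.23 (SE). TSP 4, TSP 5 and TSP 6 lay under every CSP array, and TSP 3 was between CSP 3 and CSP 5. Eln, elastin, differed by -0.49 ± 0.22 (SE). The matrix genes thus did not all differ in 1 direction.

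In the insulin-like growth factor list, 7 of 10 were higher, with a median of 0.17. Igf1 itself was lower, reading from -1.70 to -0.60 on the CSP arrays (median -0.89) and -1.91, -1.78, -1.31 and -1.68 on TSP 3 to TSP 6, a difference of -0.66 ± 0.25 (SE). Only CSP 4 was as low as the TSP arrays. Igfbp7, a secreted protein abundant in endothelium, read from 2.10 to 3.67 on the CSP arrays (median 3.19) and 4.38, 4.16, 3.35 and 3.22 on TSP 3 to TSP 6, with TSP 3 and TSP 4 on top and TSP 5 and TSP 6 inside the CSP range.

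Smooth muscle and pericyte genes did not stand apart on slide 3. In all 14 of 15 were higher, with a median of 0.35, 0.00 on slide 3 and 0.52 between slides 5 and 4. Kcnj8, the potassium channel subunit of pericytes, read from -1.41 to -0.05 on the CSP arrays (median -0.87) and 0.13, 0.72, -0.30 and 0.51 on TSP 3 to TSP 6. It differed by 1.04 ± 0.31 (SE), with an unadjusted p of 0.00548, and only CSP 2 and CSP 3 reached the TSP range. Its partner Abcc9, the sulfonylurea receptor of the same channel, read from -1.96 to -0.23 on the CSP arrays (median -1.23) and -1.48, -0.18, -0.50 and 0.77 on TSP 3 to TSP 6. Here TSP 3 was lower than 5 of the CSP arrays and TSP 6 stood highest. Pdgfrb, the growth factor receptor of pericytes, and Acta2, smooth muscle actin, were higher in all 4 pairs, by 0.70 and 0.57 with the number as a block.

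**Figure D4:**
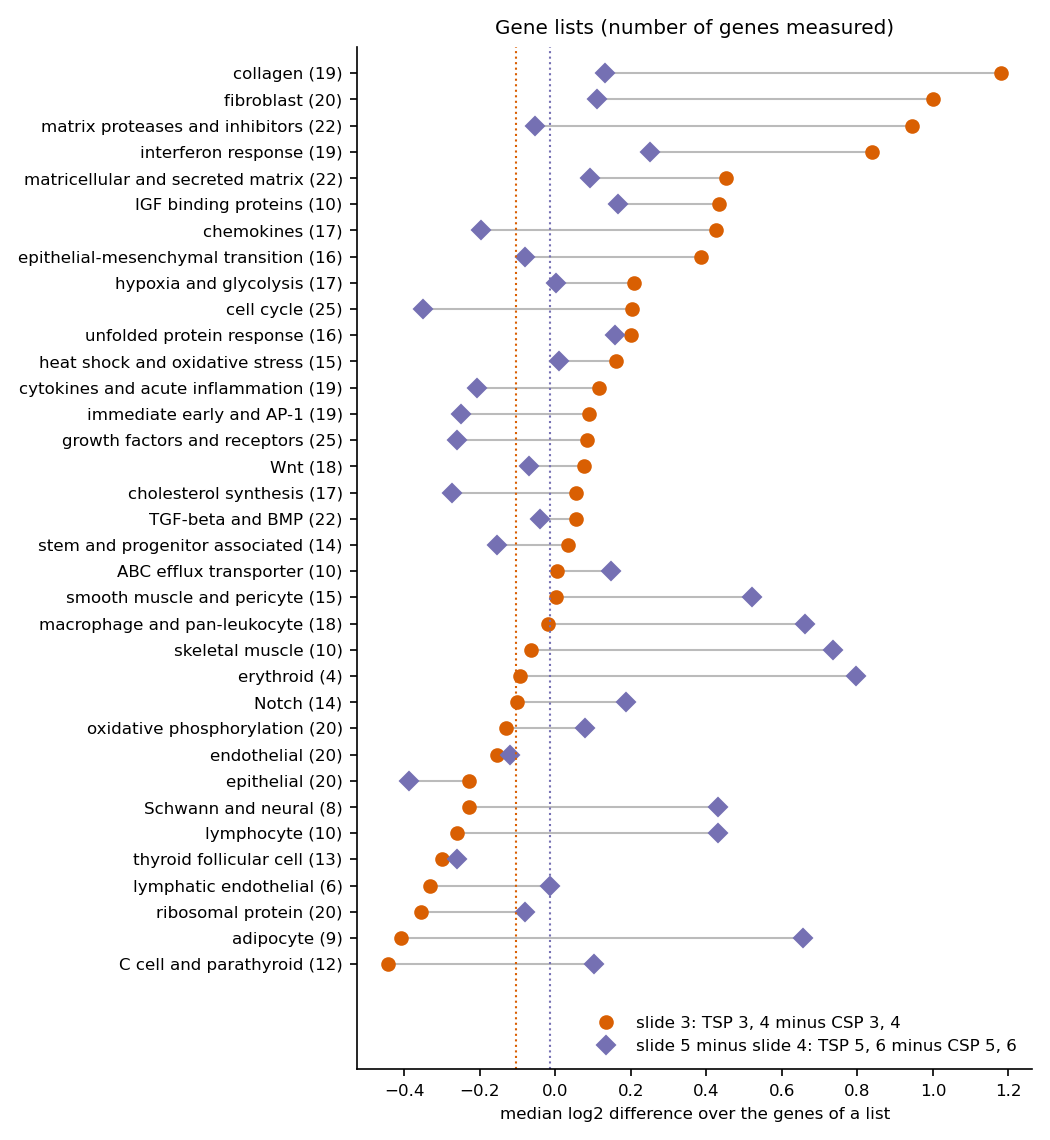
Each row is a gene list, with the median log2 difference (TSP minus CSP) of its tested genes within slide 3 (circles) and between slides 5 and 4 (diamonds), and dotted lines at the medians of all genes. Collagen, fibroblast, protease and interferon medians lie far to the right on slide 3, at 0.84 to 1.18, and at -0.05 to 0.25 between slides 5 and 4.

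Interferon response genes were the other list that stood high on slide 3. Type I interferons act through a promoter element of repeated GAAA, and their targets include the Ifit and Oas families. Of 19 tested, 15 were higher, with a median of 0.28, 0.84 on slide 3 and 0.25 between slides 5 and 4. With limma, 0 had an unadjusted p under 0.05. With the number as a block, where 3.17% of all genes were higher and 5.64% lower at an unadjusted p under 0.05, 8 of the 19 did, all higher: Ifit1, Ifit3, Irf7, Oas1a, Oasl1, Oasl2, Rsad2 and Usp18.

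The promoters of 4 genes of the list are shown as examples of those that hold a match to the element, chosen after the matches were seen. Each is the 250 bases before the first listed start site, from RefSeq in build GRCm38.p6, 5′ to 3′ on the gene's strand, with matches to the core GAAANNGAAA or its reverse complement TTTCNNTTTC in capitals. Overlapping matches run together in Gbp3. Gbp3 lies at chr3:142559794-142560043, plus strand, Ifit3 at chr19:34583279-34583528, plus strand, Ifit1 at chr19:34640639-34640888, plus strand and Rsad2 at chr12:26456453-26456702, minus strand.
Gbp3: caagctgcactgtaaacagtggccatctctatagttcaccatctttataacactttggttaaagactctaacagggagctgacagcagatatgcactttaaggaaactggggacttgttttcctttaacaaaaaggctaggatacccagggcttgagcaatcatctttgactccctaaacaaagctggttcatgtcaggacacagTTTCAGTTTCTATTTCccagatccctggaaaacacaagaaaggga
Ifit3: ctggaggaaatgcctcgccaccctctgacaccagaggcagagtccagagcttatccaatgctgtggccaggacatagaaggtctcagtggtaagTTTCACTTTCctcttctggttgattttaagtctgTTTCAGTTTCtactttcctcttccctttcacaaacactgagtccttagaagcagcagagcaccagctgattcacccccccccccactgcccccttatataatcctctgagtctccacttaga
Ifit1: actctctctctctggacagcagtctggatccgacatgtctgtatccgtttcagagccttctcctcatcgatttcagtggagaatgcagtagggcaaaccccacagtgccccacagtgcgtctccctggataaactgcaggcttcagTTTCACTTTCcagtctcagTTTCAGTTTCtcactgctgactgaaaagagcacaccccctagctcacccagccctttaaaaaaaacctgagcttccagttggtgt
Rsad2: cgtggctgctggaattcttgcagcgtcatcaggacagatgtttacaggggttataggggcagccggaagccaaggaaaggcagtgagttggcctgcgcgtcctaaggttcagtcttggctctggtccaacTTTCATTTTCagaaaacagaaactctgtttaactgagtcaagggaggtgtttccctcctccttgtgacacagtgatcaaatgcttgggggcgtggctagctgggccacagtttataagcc
Such a match was present in 9 of the 16 list members with a promoter in the RefSeq table (56.2%) and in 821 of 27018 promoters in all (3.04%). None of the 16 collagen promoters held one. Of the list members named above, Ifih1, Oasl1, Oasl2 and Irf7 held none, and Usp18 had no promoter in that table. The list was written by hand from interferon response genes, so its higher share of matches is no result of the arrays. A match is a description of letters, and its use in these cells was not tested.

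Ifit3, an interferon-induced tetratricopeptide protein whose promoter is shown, read from -1.11 to 1.21 on the CSP arrays (median 0.10) and 1.36, 1.15, -0.16 and -0.44 on TSP 3 to TSP 6. CSP 1 and CSP 2 were as high as TSP 3 and TSP 4, and the 2 TSP arrays of slide 5 lay within the range of CSP 3 to CSP 6. Usp18, a protease that removes the ubiquitin-like protein Isg15, read from -0.37 to 1.45 on the CSP arrays (median -0.10) and 1.03, 1.24, 0.26 and 0.37 on TSP 3 to TSP 6. CSP 1 and CSP 2 were again as high as TSP 3 and TSP 4, while TSP 5 and TSP 6 were above CSP 3 to CSP 6. Oasl2, of the oligoadenylate synthetase family, differed by 1.33, 1.56, 0.49 and 0.67 in pairs 3 to 6.

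Rsad2, the antiviral protein viperin, read from -2.78 to -0.54 on the CSP arrays (median -2.15) and -1.51, -1.28, -1.95 and -1.94 on TSP 3 to TSP 6. CSP 1 and CSP 2 were the highest arrays. The list mean showed the same, at 0.23 and 0.18 on CSP 1 and CSP 2, -0.83 to -0.31 on CSP 3 to CSP 6, 0.22 and 0.19 on TSP 3 and TSP 4, and -0.50 and -0.40 on TSP 6 and TSP 5. So the CSP arrays of slide 1 and the TSP arrays of slide 3 were about equally high. The part of the slide in the level was not tested.

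The median of the cell cycle genes differed in sign between the sets of arrays. Of 25 cell cycle genes tested, 19 were lower over the 10 arrays and 0 had an unadjusted p under 0.05. The median was -0.24, 0.20 on slide 3 and -0.35 between slides 5 and 4, with 14 of 25 higher on slide 3. With the number as a block, where 5.64% of all genes were lower at an unadjusted p under 0.05, 0 of the 25 were higher and 6 were lower: Birc5 (survivin), Bub1 (a spindle checkpoint kinase), Ccnb1 and Ccnb2 (B-type cyclins), Cdc20 (an activator of the anaphase-promoting complex) and Cenpa (the centromeric histone).

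Birc5 read from -2.33 to 0.19 on the CSP arrays (median -1.11) and -2.25, -1.59, -2.87 and -1.17 on TSP 3 to TSP 6, and its pairs differed by -0.73, -1.31, -0.54 and -1.37. Even-numbered arrays were higher than odd-numbered ones in both groups, and CSP 6 was highest. Bub1 read from -2.45 to 0.73 on the CSP arrays (median -1.16) and -1.47, -1.32, -2.76 and -1.63 on TSP 3 to TSP 6, with CSP 4 highest. The median difference of the list cell cycle was -0.01 without slide 5, -0.003 without TSP 5 and -0.05 without CSP 6.

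The dye-effluxing pumps define the side population, but the arrays were selected on profiles that include these genes, so their level is a description and no check of the sort. The mean of 10 efflux transporters was -0.08 to 0.72 on the CSP arrays and 0.11 to 0.67 on TSP 3 to TSP 6, against -1.32 to -0.91 in the main population. On TSP 1 and TSP 2 it was -1.31 and -1.21, inside the range of the main population. Of the 10, 9 were higher, against 8417 of all 18893 genes, and the median was 0.09. On slide 3, 5 of the 10 were higher, with a median of 0.004, and between slides 5 and 4 the median was 0.15. Abcg2, the transporter most tied to the phenotype, read from -1.07 to 0.87 on the CSP arrays (median -0.68) and 0.09, -0.39, 0.58 and -0.45 on TSP 3 to TSP 6, a difference of 0.30 ± 0.39 (SE) with the groups intermixed. Abcb1b, a mouse P-glycoprotein blocked by verapamil (chr5:8903569-8903628, plus strand), read from 0.50 to 0.94 on the CSP arrays (median 0.81) and 1.83, 1.46, 1.17 and 1.03 on TSP 3 to TSP 6. All 4 TSP arrays stood above the 6 CSP arrays, by the least for TSP 6, and the difference was 0.62 ± 0.21 (SE) with an unadjusted p of 0.0107. Abcb1a, its close relative, differed by 0.11.

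Of 14 genes tied to stem and progenitor cells 9 were higher, the median was 0.08 against -0.03 over all genes, and 0 had an unadjusted p under 0.05. Klf4, a pluripotency-associated transcription factor, read from 2.22 to 3.73 on the CSP arrays (median 2.83) and 2.37, 2.19, 3.12 and 2.43 on TSP 3 to TSP 6, lower in all 4 pairs. Nanog, Sox2 and Prom1 were too dim to test. In the Notch list, Hey1 was the only 1 of 14 with an unadjusted p under 0.05. Nrarp, another Notch target, differed by 0.60 ± 0.41 (SE) and Heyl by 0.26 ± 0.21 (SE), with overlapping groups in both.

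The secreted regulators of the TGF-beta family Inhba, the activin subunit, and Fst, follistatin, which binds activin, were higher in all 4 pairs. Fst read from -0.45 to 1.34 on the CSP arrays (median 0.92) and 1.10, 1.62, 0.97 and 1.48 on TSP 3 to TSP 6, and only CSP 3 was below 0. Inhba read from 2.36 to 3.69 on the CSP arrays (median 2.96) and 3.19, 3.89, 3.43 and 3.81 on TSP 3 to TSP 6, with the even-numbered array the higher of each slide and group. Of 22 genes of the TGF-beta and BMP list 15 were higher, with a median of 0.09 and 0 at an unadjusted p under 0.05. In the Wnt list 5 of 18 were higher, with a median of -0.15. Wnt2, a secreted ligand, read from 0.60 to 2.00 on the CSP arrays (median 1.79) and -0.02, 2.02, -0.46 and 1.34 on TSP 3 to TSP 6, with TSP 3 and TSP 5 below the other arrays. Sfrp2, a Wnt antagonist, differed by -0.93 ± 0.42 (SE), with CSP 1 and CSP 2 high and a slide 3 difference of 0.01.

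Chemokines and inflammatory genes gave 0 of 17 and 0 of 19 with an unadjusted p under 0.05, with medians of -0.03 and -0.07, both of which turned above 0 with scaling between arrays or median centring. Median centring moved the median over all genes to 0.08 as well. Cxcl12, a chemokine of stromal niches, read from -3.38 to -1.02 on the CSP arrays (median -1.90) and -1.49, -1.18, -0.69 and -1.08 on TSP 3 to TSP 6. CSP 3 and CSP 4 were lowest, CSP 1, CSP 2 and CSP 5 were level with the TSP arrays, and the pairs differed by 1.89, 2.00, 0.46 and 1.38. Ccl11, the eosinophil chemoattractant eotaxin, read from 2.99 to 4.92 on the CSP arrays (median 3.44) and 3.92, 3.43, 1.22 and 2.50 on TSP 3 to TSP 6, with the 2 arrays of slide 5 lowest. Il6, a cytokine of wounded tissue, read from 7.31 to 8.25 on the CSP arrays (median 7.57) and 8.13, 7.98, 7.67 and 8.55 on TSP 3 to TSP 6, far above the reference in both groups.

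Thyroid follicular markers were partly detected. Of 16, Tshr, Foxe1 and Slc5a5 were too dim to test, 4 of the other 13 were well above background on all 10 arrays, and 0 had an unadjusted p under 0.05. The median of -0.12 turned to 0.01 with median centring, which moved that of all genes from -0.03 to 0.08. It was -0.30 on slide 3, -0.26 between slides 5 and 4 and -0.17 with the number as a block. In that block 5.64% of all genes were lower at an unadjusted p under 0.05. Of the 13, Tg and Slc26a7 were, by -0.75 and -0.82, and 0 were higher. Tg, thyroglobulin, read from 2.76 to 5.27 on the CSP arrays (median 4.23) and 4.79, 2.72, 3.71 and 4.30 on TSP 3 to TSP 6, and TSP 4 and CSP 2 were lowest. The mean of 13 follicular genes tested was -0.77 to 0.56 on the CSP arrays and -1.08 to -0.20 on the TSP arrays. CSP 6 was the only 1 of the 10 above 0. Main population arrays read 1.39 to 1.80. The mean of the epithelial genes ran from -1.27 to 1.63 on the CSP arrays and from -0.40 to 0.58 on the TSP arrays. CSP 6 had the value of 1.63, and the other CSP arrays read at most 0.40. Pair 6 was lower after surgery in this mean, at 0.58 on TSP 6. Pair 5 was higher, at 0.24 on TSP 5 against 0.03 on CSP 5. Epcam, a surface marker of epithelium, read from -1.11 to 1.88 on the CSP arrays (median 0.51) and 0.86, 1.03, 0.76 and 1.23 on TSP 3 to TSP 6, with the 2 arrays of slide 1 lowest, and its difference with the number as a block was 0.04. Over the 20 epithelial genes the median of 0.11 turned to -0.23 on slide 3, where 5 were higher, to -0.39 between slides 5 and 4 and to -0.28 with the number as a block. In that block 4 of the 20 were lower at an unadjusted p under 0.05, against 5.64% of all genes, and 0 were higher. The 4 were Krt7 and Krt19, which are keratins, Elf3, an epithelial transcription factor, and Spint2, a protease inhibitor.

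Calca, which codes for calcitonin and marks C cells (chr7:110549383-110549442, minus strand), had the largest difference among the 25 follicular, C cell and parathyroid genes tested. Calca read from 4.73 to 5.68 on the CSP arrays (median 5.16) and 1.53, 4.57, 4.09 and 4.18 on TSP 3 to TSP 6. The groups did not overlap and the difference was -1.58 ± 0.50 (SE), with an unadjusted p of 0.00753, but TSP 3 stood far below the rest. The log2 difference of Calca was -0.89 without TSP 3. Other genes of secretory granules were lower on slide 3 too, at -2.44 for Chgb, -2.29 for Scg2, -1.70 for Scg3 and -2.02 for Pcsk1, though none of them had an unadjusted p under 0.05. Chga, chromogranin A, read from 0.82 to 3.99 on the CSP arrays (median 3.42) and 3.34, 3.87, 3.05 and 4.13 on TSP 3 to TSP 6, higher by 0.65. The list mean was 0.00 on TSP 3 and 0.81 to 2.38 on the other 9 arrays. In the list 9 of 12 genes were lower, with a median of -0.25, -0.44 on slide 3 and 0.10 between slides 5 and 4.

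Endothelial genes were strongly detected: all 20 were well above background on all 10 arrays. Their mean was 0.93 to 2.53 on the CSP arrays and 0.86 to 2.02 on the TSP arrays, against -2.10 to -1.41 in the main population. Pecam1, an adhesion molecule of endothelium, read from 0.70 to 2.50 on the CSP arrays (median 2.03) and 2.19, 1.61, 1.83 and 1.14 on TSP 3 to TSP 6, intermixed between groups. Of the 20 genes 2 were higher, and 0 had an unadjusted p under 0.05. The median difference was -0.14, -0.15 on slide 3 and -0.12 between slides 5 and 4, against -0.03, -0.10 and -0.02 over all genes. Odd-numbered arrays were higher in endothelial genes and lower in fibroblast genes than even-numbered arrays of the same slide, in both groups, with means of 2.19 and 0.96 on CSP 3 and CSP 4 and 1.96 and 0.86 on TSP 3 and TSP 4.

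Markers of blood, muscle and fat cells read under the tissue mix and moved with the slide. Over all 10 arrays the erythroid mean was -4.22 to -2.75, the macrophage mean -3.93 to -2.57 and the skeletal muscle mean -3.26 to -2.28. Of those lists 4 of 8, 18 of 20 and 10 of 10 genes could be tested. Between slides 5 and 4 the median differences were 0.80, 0.66 and 0.73, and 0.66 for adipocyte genes, while on slide 3 they were -0.09, -0.02, -0.07 and -0.41. TSP 5 and TSP 6 were the highest of the 10 arrays in the erythroid, macrophage and adipocyte means, and with CSP 2 in the skeletal muscle mean. Their slide had the higher Cy5 background given above, and on it CMP 3 and TMP 3 read -2.87 and -3.01 in the erythroid mean. CMP 2 and TMP 2 on slide 4 read -3.95 and -4.05. CMP 1 and TMP 1 on slide 2, where the median Cy5 background was 43, read -3.07 and -2.90. The part of the background of slide 5 in these differences, and in the smooth muscle and pericyte difference between slides 5 and 4, was not tested. The macrophage median turned to -0.04 with scaling between arrays. Ptprc, the pan-leukocyte marker, was too dim to test. The lymphocyte, lymphatic endothelial and Schwann lists had 0 of 10, 6 and 8 genes with an unadjusted p under 0.05.

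**Figure D5:**
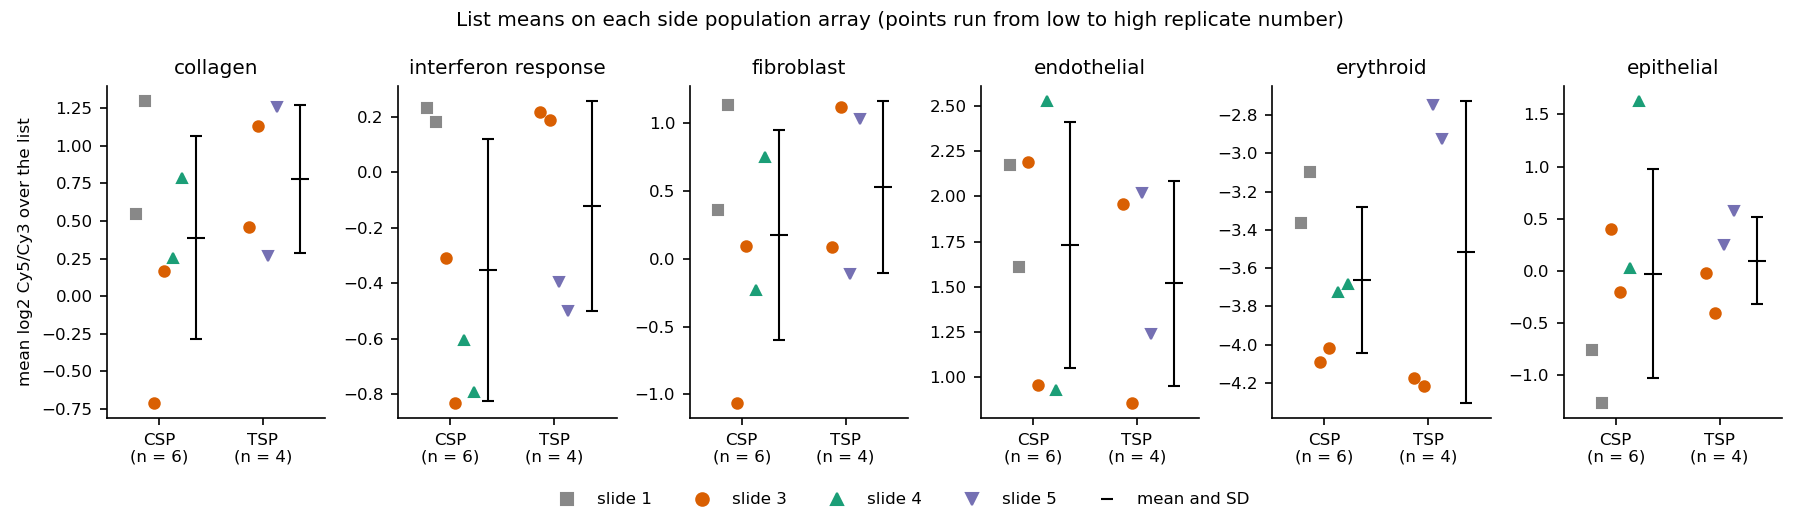
Each panel is a gene list and each point an array, with the mean log2 sample over reference of its tested genes on the y axis, grouped as CSP (n = 6) and TSP (n = 4) and coloured by slide, and the group's mean and SD beside the points. Collagen and fibroblast means are lowest on CSP 3, interferon means are high on slide 1 and on TSP 3 and TSP 4, and erythroid means are highest on TSP 5 and TSP 6.

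The 20 ribosomal protein genes had a median of -0.19, with 17 lower and 6 of the 20 lower in all 4 pairs, against 12.8% of all genes. Rps9, of the small subunit, was the only 1 with an unadjusted p under 0.05 and read from 0.13 to 1.25 on the CSP arrays (median 0.52) and -0.15, 0.10, 0.18 and 0.06 on TSP 3 to TSP 6. CSP 2 alone was within the TSP range, and CSP 3 was highest. In the hypoxia and glycolysis, unfolded protein response, heat shock, cholesterol synthesis and oxidative phosphorylation lists 0 of 17, 16, 15, 17 and 20 genes had an unadjusted p under 0.05, and the medians lay between -0.07 and 0.02. The epithelial-mesenchymal transition list gave 0 of 16, with a median of 0.18.

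Whether the difference after surgery was particular to the side population was tested as the TSP minus CSP difference less the TMP minus CMP difference. No gene passed with limma, and 121 had an unadjusted p under 0.05 (0.64%). For Postn the main population differed by 0.63, so that the effect in the side population was larger by 1.07 ± 0.59 (SE, unadjusted p 0.0867). Fosl1 differed by -0.03 in the main population and its effect there and in the side population were apart by -0.82 ± 0.35 (SE, unadjusted p 0.0322). Kcnj8 was higher in both, by 1.04 and 0.80. Ifit3 was higher by 0.31 and 0.95, with an unadjusted p for the difference of effects of 0.422.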

How the data were processed

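Per the labels, every array was a 2-colour Agilent mouse array with the sample in Cy5 and the common reference in Cy3. The deposited scanner files hold spot intensity values and local backgrounds for each dye, read with Agilent Feature Extraction 9.5.1.1 per the file headers (8.5.1.1 per the submitters' processing notes), and a log10 ratio the scanner software computed. A deposited series matrix of log2 values covers the same arrays, but its columns match arrays of other numbers than their names in several cases, so it served only as an alternative, without its TSP 1 and TSP 4 columns, which match the left-out arrays. The aligner and build of the authors' own gene assignment are not given in the sources used here, and probe positions are those of mm7, per the file headers.

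Background was corrected by normexp (offset 50) and each array normalized by loess with control spots at weight 0, in limma 3.58.1 under R 4.3.3 with the data.table package (version 1.17.8). Differences of signal and background below the 0.1st percentile of a channel were first set to it. This step was added after the data were seen: on TSP 6, 6 Cy5 and 10 Cy3 spots lay more than 1000 below background, moved the fitted background means to -635.7 and -709.3 (-95.3 and -2.26 with the step), and narrowed that array's ratios. The 43379 spots that are not controls gave 41174 probes and 27670 gene names, and 22951 probes were matched to RefSeq symbols by accession. For each gene the probe kept was the one brightest on average, and 18893 genes with Cy5 signal well over background on 3 or more arrays were tested with lmFit and eBayes, with Benjamini-Hochberg adjustment over all of them and a call at 0.05. The code was tested on simulated data.

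TSP 1 and TSP 2 were left out of every comparison but the alternatives that say they include them. The number of arrays limits the precision, and the only slide with both groups holds 2 of each. Same-numbered CSP and TSP arrays deviated together from their group means (r = 0.38, 0.26, 0.39 and 0.43 across genes for numbers 3 to 6), so a fit with the replicate number as a block was made. The labels state no such pairing. Alternatives changed the ratio, scaling, filter, probe choice, samples and blocks. Named genes were, per direction, the 12 with the smallest p among genes whose groups do not overlap and whose slide 3 difference has the same sign (0 genes passed adjustment), up to 6 with the largest slide 3 difference among those at least 1 apart on slide 3 and between the other slides, up to 4 per list and 2 markers per cell type. Lists numbered 35 with 581 genes, and some list genes are not reported here. The members, lists and tests were chosen with earlier results of these data known. Promoters are RefSeq's.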

Additional observations from a re-analysis of the deposited data

Results flagged for a closer look

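In 17 cases 1 array lay far from the others of its group by Dixon's criterion, which flags about 1 in 20 groups by chance, and 412 groups were examined. Among the CSP arrays these were Rhbdl3 at -1.82 and Krtap16-3 at 1.74 on CSP 2 and CSP 1, and Letm2 at 1.68, Zeb2, a transcription factor of mesenchymal transition, at 0.54, and Myh11, smooth muscle myosin, at -0.45 on CSP 4. On CSP 3 they were Casr, the calcium-sensing receptor, at 0.84, Ereg, the growth factor epiregulin, at 2.01, Plaur at 3.56 and Rps9 at 1.25. Wnt2 read 0.60 on CSP 5. On CSP 6 they were Pmvk, an enzyme of cholesterol synthesis, at 1.29, the thyroid transcription factor Pax8 at 1.72, Duoxa2, the maturation factor of the thyroid oxidase, at 1.83, and the mean of the follicular list at 0.56. Among the TSP arrays TSP 3 was apart in Zfas1 at 0.65, Calca at 1.53 and Jun, an AP-1 factor, at 1.89.

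Nr5a1 was lower in all 4 side population pairs, by -0.73 on average, and higher in all 3 main population pairs, by 0.06. Rps21 did the same, at -0.64 and 0.10. These differences between the populations were set apart by direction only, and in the fit across all genes the limma adjusted p for the difference of effects was 0.9999 for each.

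TSP 1 and TSP 2, which no main comparison used, read 1.70 and 1.66 in the mean of the follicular list, where the highest CSP array read 0.56. Their epithelial means were 3.28 and 3.23, against at most 1.63 on the CSP arrays.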

How the results depend on the processing

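The count of genes called for TSP 3 to TSP 6 against CSP 1 to CSP 6 was 0 with limma under the alternatives other than the fixed slide blocks, which called 3 genes over 10 arrays, 63 over 16 arrays and 89 with odd or even number added. In the 10-array slide blocks only slide 3 sets the groups against each other. With the slide as a random block (consensus correlation 0.46) the count was 0, with 1322 genes at an unadjusted p under 0.05. The replicate block on the paired numbers gave 0 and 1665 unadjusted, and changed no call. Leaving out each array gave 0 to 0 in the comparison of all 10 arrays, in slide 3 alone (a lone array was assumed to vary like the other group) and in the side against main population difference, with 468 to 787, 763 to 1895 and 96 to 230 genes unadjusted. Counts in slide 3 alone and in the difference of populations were 0 under every alternative run for them, including slide as a block for the latter (1446 unadjusted). Unadjusted counts for the 10 arrays were 580 with the scanner's log ratio, 605 with median centring, 614 with scaling between arrays, 626 from the deposited table, 925 with no filter, 280 with genes above background on every array, 1405 without slide 5 and 521 with normexp fitted on all spots.

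With all 6 TSP arrays the log2 difference of Fstl1 turned to -0.66, the log2 difference of Chst8 to -0.051, the log2 difference of Hey1 to -0.33 and the log2 difference of Plekhs1 to 0.073, while the log2 difference of Postn was 0.32, and the list medians turned to -0.44 for collagen and -0.62 for fibroblast genes. TSP 1 and TSP 2 look like main population arrays. Pde7b, 4930463O16Rik and 4930474A20Rik passed over 16 arrays and Col3a1, Fibin and Oasl2 with slide and odd or even number as blocks, with the values given above. Dim genes have only signal near background on slides 1 and 5, where fewer spots were measured.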
